A study of Homo sapiens with 4 samples.

Results

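Interleukin-1 is an inflammatory cytokine made in 2 forms, IL-1α (gene IL1A) and IL-1β (gene IL1B). Both bind the receptor encoded by IL1R1, which then recruits the accessory chain encoded by IL1RAP, and the adaptor MYD88 carries the signal inward to the NF-kB and AP-1 transcription factors. The receptor encoded by IL1R2 binds the same ligands but lacks the signalling domain and acts as a decoy, while IL1RN encodes a secreted antagonist that occupies the IL1R1 receptor without activating it. IL-18 and IL-33 are relatives of interleukin-1 with their own receptors, that of IL-33 being encoded by IL1RL1. In epithelial cells the pathway is known for driving chemokines and adhesion receptors.

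These 10 genes, IL1R1, IL1R2, IL1RAP, IL1RL1, IL1A, IL1B, IL1RN, IL18, IL33 and MYD88, were followed among 18417 genes on Affymetrix Human Gene 1.0 ST arrays. RNA came from MDA-MB-468, a breast cancer cell line whose endogenous p53 carries R273H. Cells on 2 arrays had received a lentiviral non-targeting shRNA (NS) and cells on the other 2 a lentiviral shRNA against p53 (p53si-1), which is not specific to the mutant. The study's methods and results give different times after transduction for the arrays. All 4 cultures were transduced cells of this single line, only 1 p53 shRNA sequence was used, and the targeted transcript is not analysed here. The family was selected on the difference between p53si-1 and NS in the same arrays, where IL1R1 stood out, so the differences of its members are described with the value of every array and without a test. Each member had 1 named transcript cluster.

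The values are log2 RMA signals, in which 1 unit is a doubling. Mean signals of all genes had a lower quartile of 4.72, a median of 6.59 and an upper quartile of 8.24, which serve below as marks of scale. Signal also depends on the probes of each gene, so the members are not ranked against each other. Duplicate arrays differed by a median of 0.10 (NS) and 0.11 (p53si-1) over all genes, and 90% of genes lay within 0.28 and 0.29. With 4 arrays a two-sided permutation test cannot go below p = 0.333, and the number of arrays limits the precision of every value.

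The line showed the markers of an epithelial culture. Keratin 8 (KRT8) and EPCAM had mean signals near the top of the scale, at 12.42 and 12.03 with NS, and EGFR was at 9.88, while the hormone receptors ESR1 and PGR were at 4.49 and 3.97. Of 13 measured leukocyte markers 9 lay under the lower quartile, among them PTPRC, the common leukocyte antigen, at 3.12 and 3.06 in the NS duplicates and 3.14 and 3.01 in those of p53si-1. The exceptions included CD14, at 9.82 with NS and 9.75 with p53si-1. The summed log2 signal of the leukocyte list ran from 61.3 to 61.6 with NS and from 61.1 to 61.4 with p53si-1, and that of 11 fibroblast and endothelial markers, 6 of them under the lower quartile, from 55.3 to 56.4 and from 55.5 to 55.6. KDR, a VEGF receptor on that list, was at 8.54 with NS and 9.04 with p53si-1. The largest differences of the other marker lists were those of KRT5, a basal keratin, at 10.36 and 10.12 with NS and 9.85 and 9.80 with p53si-1, and of the leukocyte Fc receptor FCGR3A at 3.40 and 3.34 with NS and 3.07 and 2.95 with p53si-1. Neither gene's arrays overlapped, and adjusted p from limma was 0.275 for KDR, 0.217 for KRT5 and 0.201 for FCGR3A. The part of other cell types in the results was not tested.

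Promoter sequences of IL1R1 and IL1R2 are shown because these receptor genes are chromosomal neighbours and were the members with the highest values in p53si-1 relative to NS. They are RefSeq entries for GRCh38.p14 and run from 250 bases before to 50 bases after an annotated start. RefSeq gives 4 such starts for IL1R1 and 2 for IL1R2, and the arrays do not tell which start was used. The first 2 sequences are the most upstream and the most downstream start of IL1R1 (chr2:102104354-102104653 and chr2:102142496-102142795, both plus strand), and the third is the upstream start of IL1R2 (chr2:101991710-101992009, plus strand). Capitals mark matches to the NF-kB consensus and to the TATA box (TATAAA), searched on both strands.
IL1R1 upstream start: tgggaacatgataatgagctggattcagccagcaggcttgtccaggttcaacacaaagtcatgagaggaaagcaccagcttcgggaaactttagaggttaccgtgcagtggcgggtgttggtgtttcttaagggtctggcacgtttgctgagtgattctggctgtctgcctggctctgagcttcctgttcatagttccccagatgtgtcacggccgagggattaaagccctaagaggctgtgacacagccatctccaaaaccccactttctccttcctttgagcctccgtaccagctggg
IL1R1 downstream start: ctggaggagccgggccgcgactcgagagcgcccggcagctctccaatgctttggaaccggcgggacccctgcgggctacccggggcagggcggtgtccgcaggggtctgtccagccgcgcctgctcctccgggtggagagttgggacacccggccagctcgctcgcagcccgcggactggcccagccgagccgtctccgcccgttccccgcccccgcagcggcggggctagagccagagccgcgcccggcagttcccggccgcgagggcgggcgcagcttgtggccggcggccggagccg
IL1R2 upstream start: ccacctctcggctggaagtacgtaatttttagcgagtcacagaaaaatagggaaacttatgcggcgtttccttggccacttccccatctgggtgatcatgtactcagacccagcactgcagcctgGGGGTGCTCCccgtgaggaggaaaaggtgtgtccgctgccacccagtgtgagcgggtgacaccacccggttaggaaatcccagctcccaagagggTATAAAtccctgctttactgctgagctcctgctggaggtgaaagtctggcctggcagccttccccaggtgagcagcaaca
The downstream IL1R1 sequence was 77.7% G and C with 40 CpG dinucleotides, against 52.7% and 7 for the upstream one, and neither held a match. The IL1R2 sequence was 56.3% G and C with 9 CpG dinucleotides. It held an NF-kB match, GGGGTGCTCC, at position -125 from the start and a TATA box at position -30. These motifs occur in 11.3% and 11.5% of all 35116 promoters in the same table, whose median G and C content was 58.7%. Among 18 promoter entries of 9 members the NF-kB consensus was found in 1 entry and the TATA box in 5 entries of 5 members, among them a further start of IL1R1 with 2 matches. The AP-1 motif TGANTCA, present in 7.71% of all promoters, was found in 4 entries of 3 members, which were IL1A, IL1RL1 and IL1RN. IL18 had no entry. A match is a description of the letters and does not show binding.

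IL1R1, the signalling receptor, was the member with the largest difference. Its log2 signal was 8.33 and 8.06 with NS and stood at 8.99 and 8.88 with p53si-1. Both p53si-1 arrays lay above both NS arrays, and the gap of 0.54 between the nearest arrays was larger than the distance between duplicates, which was 0.27 for NS and 0.11 for p53si-1. The group means were 8.20 ± 0.19 and 8.93 ± 0.08 (SD, n = 2 arrays each), which is 1.66-fold, or 0.73 on the log2 scale. Over the 4 pairs of 1 NS and 1 p53si-1 array the difference ran from 0.54 to 0.92. IL1R1 was the only member over 1.5-fold, a level that 0.271% of all genes passed upward and 0.652% downward, and 0.364% of genes had a larger difference in either direction. RNA was taken from whole cultures, so more transcript per cell and more cells carrying it cannot be told apart.

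IL1R2, the decoy receptor, was also higher. It was at 8.85 and 8.55 with NS and at 9.24 and 9.12 with p53si-1, so the groups did not overlap, with a gap of 0.28 between the nearest arrays. That gap was about the distance between the NS duplicates, 0.30. The means of 8.70 ± 0.21 and 9.18 ± 0.09 (SD, n = 2 arrays each) differed by 0.49 on the log2 scale, or 1.40-fold, which is under the 1.5-fold mark, and 1.88% of genes differed by more. Without NS replicate 1 the difference was 0.63, which is over that mark, and without NS replicate 2 it was 0.34. Signalling receptor and decoy stood in the upper part of the scale already with NS.

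The other chains of the receptor complexes did not share this pattern. IL1RAP, the chain that IL1R1 needs in order to signal, was at 6.61 and 6.26 with NS and at 6.22 and 6.11 with p53si-1. The p53si-1 arrays were the lower ones, by a difference of -0.27, but the nearest arrays were only 0.04 apart while the NS duplicates were 0.35 apart. Without NS replicate 1 the difference was -0.10. IL1RL1, the IL-33 receptor, lay under the lower quartile of all genes on every array, at 3.45 and 3.16 with NS and 3.31 and 3.17 with p53si-1, and the groups overlapped. MYD88, the shared adaptor, was at 8.19 and 8.11 with NS and 8.11 and 8.06 with p53si-1, a difference of -0.07 in means of 8.15 ± 0.06 and 8.08 ± 0.04 (SD, n = 2 arrays each). Its groups were separated by 0.001, which is under the distance between duplicates.

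**Figure D1:**
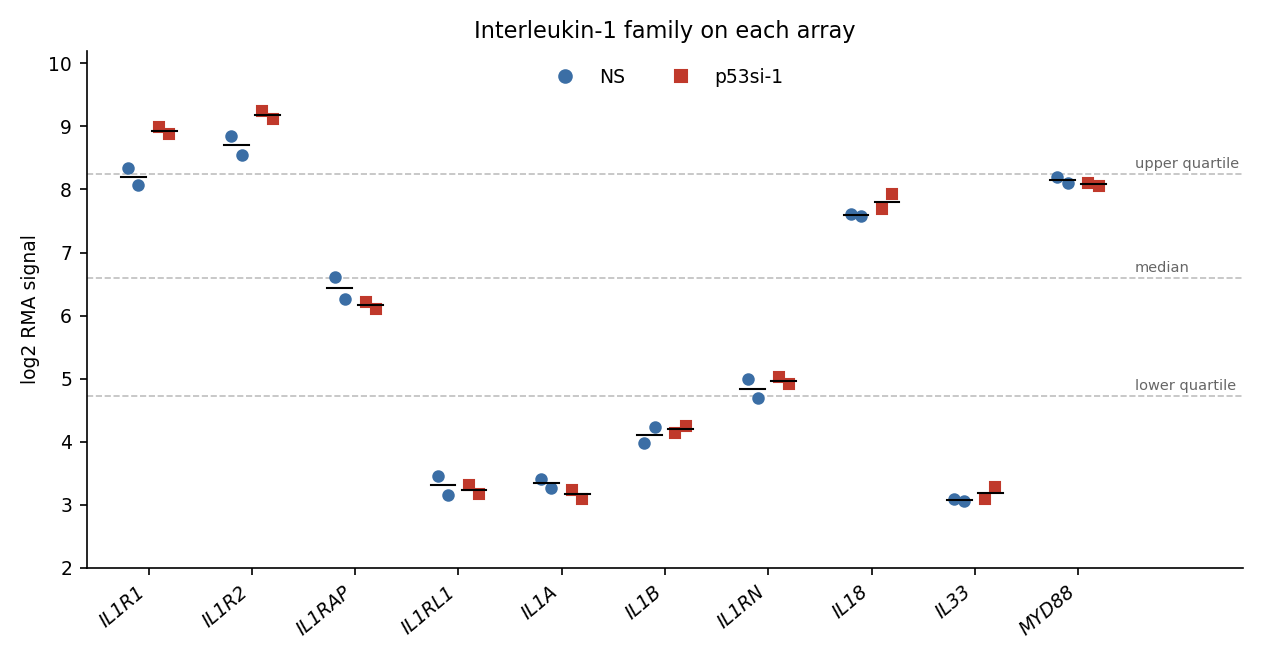
Log2 RMA signal of the 10 family members on each array. NS arrays are drawn as circles and p53si-1 arrays as squares, black bars are group means, and dashed lines are the quartiles of the mean signals of all genes. IL1R1 and IL1R2 are the members whose p53si-1 arrays lie furthest above their NS arrays, from means of 8.20 and 8.70 to 8.93 and 9.18.

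Among the ligands, the interleukin-1 genes were dim in both groups. IL1A was at 3.41 and 3.27 with NS and 3.24 and 3.10 with p53si-1. The p53si-1 arrays were lower by 0.03 at the nearest, less than the distance of 0.14 between duplicates in either group. IL1B was at 3.98 and 4.23 with NS and 4.14 and 4.25 with p53si-1, and the groups overlapped. IL1A and IL1B both lay under the lower quartile of all genes. The deposited values carry no detection call, so this describes brightness and does not show that a transcript was absent.

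The antagonist IL1RN was at 4.99 and 4.69 with NS and 5.02 and 4.91 with p53si-1. Its mean difference of 0.13 was smaller than the NS spread, and the groups overlapped. IL33, an alarmin stored in the nucleus, was at 3.09 and 3.06 with NS and 3.08 and 3.29 with p53si-1, also under the lower quartile and with overlap.

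IL18 was the ligand with a signal above the median of all genes. It was at 7.62 and 7.58 with NS and at 7.69 and 7.92 with p53si-1. The p53si-1 arrays were both higher, by a mean of 0.21, and the nearest arrays were 0.07 apart while the p53si-1 duplicates were 0.23 apart. Without p53si-1 replicate 1 the difference was 0.32, and without p53si-1 replicate 2 it was 0.09. Its means were 7.60 ± 0.03 and 7.81 ± 0.16 (SD, n = 2 arrays each).

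Of the 10 members, 3 had both p53si-1 arrays above both NS arrays (IL1R1, IL1R2 and IL18) and 3 had them below (IL1RAP, IL1A and MYD88). Over all genes 19.9% were separated upward and 22.6% downward in this way. The median difference of the members was 0.10, against -0.01 over all genes. The family was chosen on this contrast, so nothing is read from these counts. IL1R1 was the member in which the gap between groups was larger than both distances between duplicates.

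**Figure D2:**
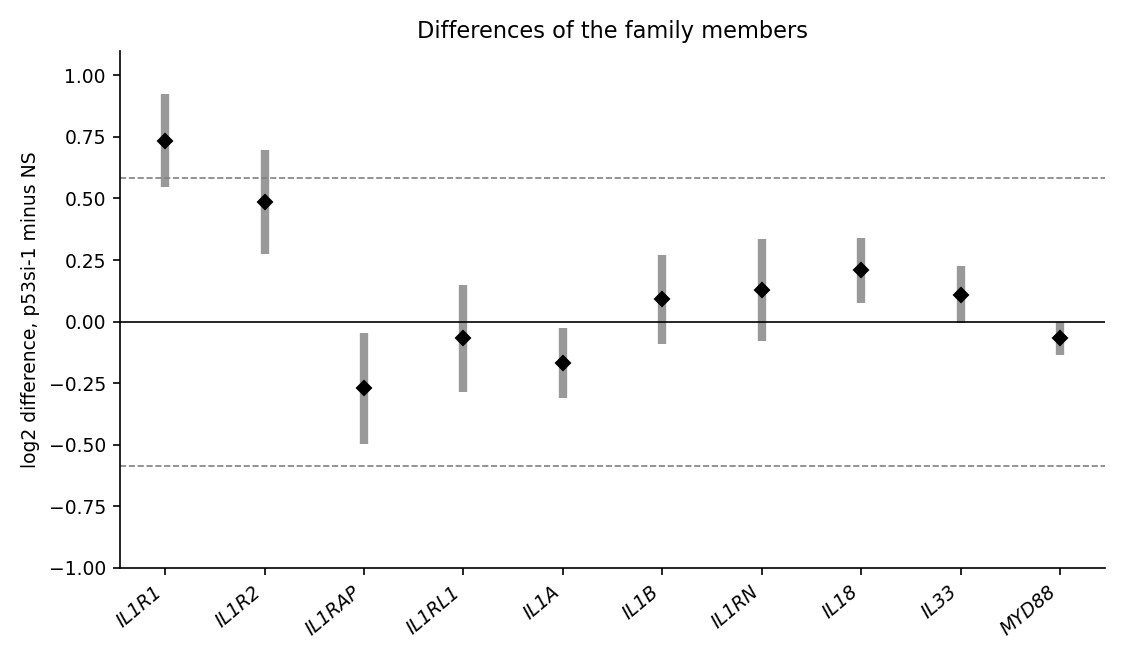
Log2 difference (p53si-1 minus NS) of each member. Diamonds are differences of the group means, grey bars span the 4 pairs of 1 NS and 1 p53si-1 array, and dashed lines mark 1.5-fold. The bar of IL1R1 runs from 0.54 to 0.92 and that of IL1R2 from 0.28 to 0.70, while the bars of IL1RL1, IL1B, IL1RN and IL33 cross 0.

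IL1R1 lies on chromosome 2 in a row of 6 receptor genes of the family, and the order of genes was taken from RefSeq. From IL1R2 through IL1R1 the row continues with IL1RL2 (the IL-36 receptor), IL1RL1, IL18R1 and IL18RAP (the chains of the IL-18 receptor). Within the row both p53si-1 arrays lay above both NS arrays for IL1R2 and IL1R1, which are next to each other. So they did for MAP4K4, a kinase gene outside the family that flanks IL1R2. It was at 7.69 and 7.66 with NS and 7.87 and 7.94 with p53si-1, a difference of 0.23 with a gap of 0.18 between the nearest arrays. Over all genes 19.9% were separated upward in this way. The groups overlapped for the other genes flanking this row, RFX8, SLC9A4 and SLC9A2. IL1RL2, the gene after IL1R1, was at 5.38 and 5.34 with NS and at 5.09 and 4.97 with p53si-1. IL1RL2 thus differed by -0.33 (SE 0.09, adjusted p = 0.224 from limma). Its groups did not overlap, and it did not pass. IL18R1 and IL18RAP were dim, with differences of -0.07 and 0.05. The ligand genes from IL1A to IL1RN form a second row of 9 genes on the same chromosome. The largest difference among them was that of IL1F10 (IL-38), which was at 4.60 and 4.55 with NS and 4.32 and 4.19 with p53si-1 (difference -0.32, adjusted p = 0.245 from limma). Of the genes flanking this row, CKAP2L was lower by a difference of -0.41, with a gap of 0.34 between the nearest arrays. NT5DC4 was also lower without overlap (-0.19), while PSD4 and PAX8 overlapped. Over all genes 22.6% were separated downward.

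**Figure D3:**
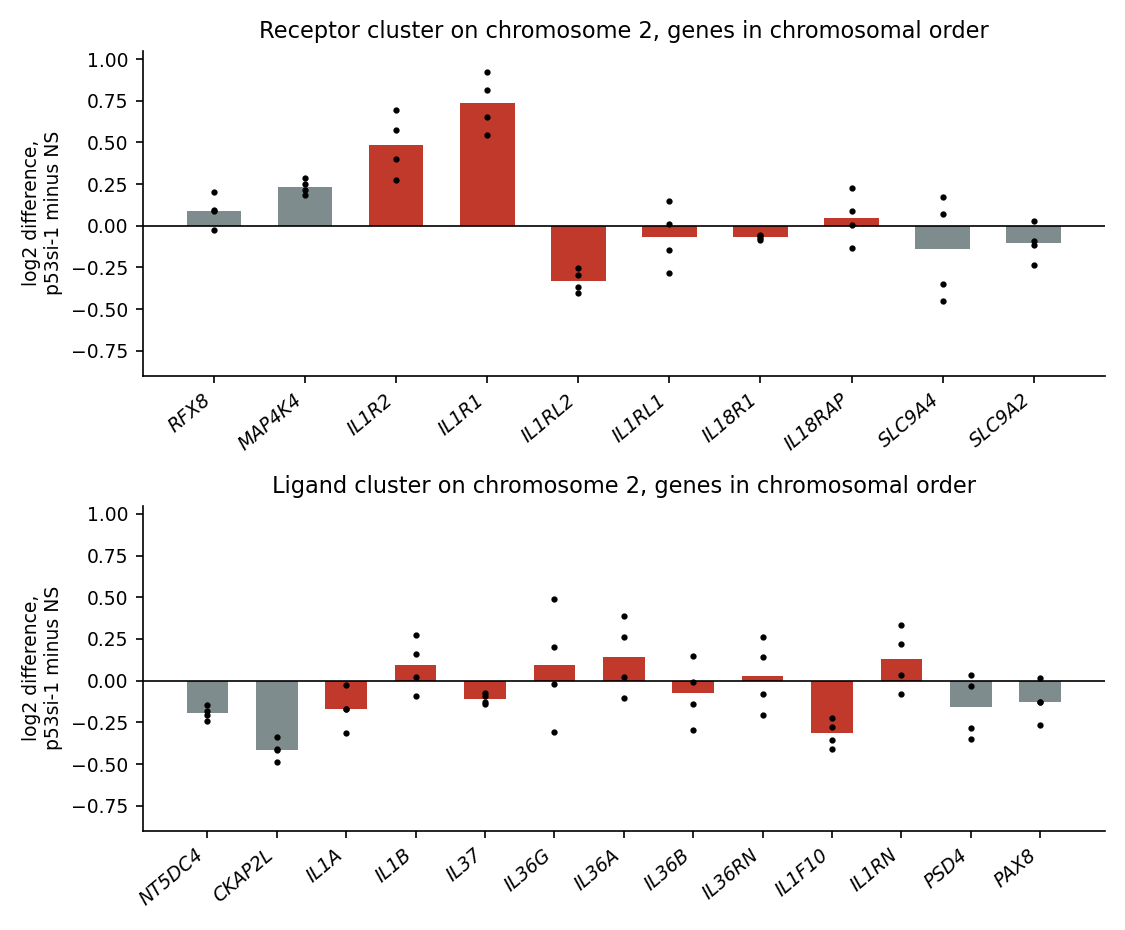
Log2 difference (p53si-1 minus NS) of genes in the receptor cluster and in the ligand cluster, in chromosomal order. Bars are differences of group means (red for the family, grey for the 2 flanking genes on each side), and points are the 4 pairs of 1 NS and 1 p53si-1 array. In the receptor cluster the bars of IL1R2 and IL1R1 reach 0.49 and 0.73, the flanking MAP4K4 lies at 0.23, and IL1RL2 lies at -0.33. In the ligand cluster the flanking CKAP2L lies at -0.41.

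The genes whose pattern over the 4 arrays was most like that of IL1R1 were SOSTDC1, SLC35D2, CA8, SECISBP2 and RAB15. Likeness was measured as the Euclidean distance between log2 values centred on each gene's own mean, and it uses the same contrast that chose IL1R1. The distances ran from 0.092 for SOSTDC1, a secreted antagonist of BMP signalling with a difference of 0.82, to 0.131 for RAB15, a small GTPase with a difference of 0.69. IL1R2 was at a distance of 0.25 and ranked 29 of 18416 genes.

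To see how the rest of the pathway moved, 80 further genes in 6 lists were tested in the fit over all genes. With limma's p adjusted over the whole table, 0 of the 80 fell under 0.05 in either direction, where 0.109% of all genes did. At an unadjusted p under 0.05 from limma 3 of the 80 were higher and 12 lower, against 5.45% and 6.8% of all genes. Of these, 1 higher and 8 lower genes came from a single list, that of genes known to be induced by interleukin-1, described below. Over 1.5-fold were 3 of the 80, each lower with p53si-1, and they were ICAM1, CCL2 and LIF. All of them stood in that same list, and over all genes 0.652% passed this mark downward and 0.271% upward. The 6 lists were chosen with earlier results of these arrays known, so these counts are no independent evidence of a direction.

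Further family members were mostly dim. Of 7 other ligands and binding proteins 5 lay under the lower quartile, and their median difference was 0.03. IL36A was at 4.65 and 4.79 in group means, and IL37, an anti-inflammatory relative, at 3.76 and 3.65. Of 6 other receptors 4 lay under the lower quartile, and their median difference was -0.02. IL1RAPL2 was at 4.17 with NS and 3.91 with p53si-1 (adjusted p = 0.39 from limma), and its difference of -0.26 was -0.16 without NS replicate 1. SIGIRR, a receptor that dampens interleukin-1 signalling, lay above the median of all genes, with means of 7.87 (NS) and 7.99 (p53si-1), a difference of 0.12 (SE 0.09, adjusted p = 0.633 from limma), or 0.19 and 0.06 without NS replicates 1 and 2.

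The Toll-like receptors, which share the intracellular domain of IL1R1 and of which all but TLR3 can signal through MYD88, had a median difference of 0.02 over 8 measured genes. TLR1, TLR9 and TLR6 had the largest differences, at 0.22, -0.15 and 0.13, with adjusted p from 0.62 to 0.719 from limma. Single arrays decided these values. Without NS replicate 1 or 2 TLR1 was at 0.40 or 0.04 and TLR6 at 0.27 or -0.009, without p53si-1 replicate 1 or 2 TLR1 was at 0.09 or 0.34 and TLR9 at -0.25 or -0.05, and TLR6 was at 0.09 without p53si-1 replicate 1. The 18 relay genes act at or between the receptor adaptors and the IkB kinases, and they include inhibitors such as IRAK3 and TOLLIP. Their mean signals ran from 5.20 to 10.52, and their median difference was -0.01. PELI2, a ubiquitin ligase of IRAK proteins, was at 7.10 and 7.24 with NS and 7.49 and 7.65 with p53si-1 (difference 0.40, adjusted p = 0.201 from limma). TAB3, a partner of the kinase TAK1, was at 8.04 and 7.93 with NS and 7.55 and 7.63 with p53si-1 (difference -0.40, adjusted p = 0.174 from limma). Neither gene's groups overlapped, and neither passed. CHUK, an IkB kinase, was at a difference of -0.19, or -0.11 without p53si-1 replicate 1.

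Genes that process or release interleukin-1 and IL-18 had a median difference of -0.04 over 13 genes. CASP1, the protease that cleaves IL-1β and IL-18 to their mature forms, was at 7.25 and 6.97 with NS and 6.96 and 6.95 with p53si-1. CARD8, an inflammasome sensor, had a difference of 0.28 (adjusted p = 0.34 from limma), which was 0.08 as a mean over its 2 clusters. The ATP-gated channel P2RX7 was at -0.19, and without 1 array at -0.04 (NS replicate 1), -0.35 (NS replicate 2), -0.33 (p53si-1 replicate 1) or -0.05 (p53si-1 replicate 2). The inflammasome adaptor PYCARD was at -0.17, and without 1 array at -0.11 (NS replicate 1), -0.32 (p53si-1 replicate 1) or -0.03 (p53si-1 replicate 2).

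The widest differences stood in the list of genes that interleukin-1 is known to induce. Of 28 measured response genes 21 were lower in the p53si-1 mean and 7 were higher, and the median was -0.14 against -0.01 over all genes. Both p53si-1 arrays lay below both NS arrays in 15 of them and above in 1, where 22.6% and 19.9% of all genes were so placed. By limma 0 were called, where 0.109% of all genes were. At an unadjusted p under 0.05 from limma 8 were lower and 1 was higher, against 6.8% and 5.45% of all genes. The list was drawn up with earlier results of these arrays known and contains general NF-kB targets, so its counts are no independent evidence of a direction and are not particular to interleukin-1.

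ICAM1, the leukocyte adhesion receptor, was at 10.00 and 10.37 with NS and 9.11 and 9.18 with p53si-1. The arrays did not overlap, and the gap of 0.82 was larger than both distances between duplicates (difference -1.04, SE 0.13, adjusted p = 0.0638 from limma). ICAM1 passed at adjusted p of 0.0226 to 0.0407 under 3 of 10 other settings, namely with the prior variance following the signal, with arrays centred on their medians and without dim genes. LIF, an interleukin-6 type cytokine, was at 7.12 and 7.46 with NS and 6.12 and 6.61 with p53si-1 (difference -0.92, SE 0.19, adjusted p = 0.151 from limma). CCL2, a monocyte chemokine, was at 8.65 and 9.31 with NS and 7.31 and 8.56 with p53si-1. Its p53si-1 duplicates were 1.25 apart, more than its difference of -1.04 (adjusted p = 0.387 from limma), which was -0.42 without p53si-1 replicate 1 and -1.67 without p53si-1 replicate 2. The groups of CCL2 were separated by 0.085. With the replicate number as a block, adjusted p from limma was 0.0747 for CCL2, 0.0519 for LIF and 0.0552 for ICAM1, so none of them passed. CXCL8, the neutrophil chemokine often used as a readout of interleukin-1, was at 6.72 and 7.38 with NS and 6.15 and 7.08 with p53si-1, and the groups overlapped. Within each replicate number its p53si-1 array was the lower one, but pairing is not established. Among the 7 response genes with higher means were NFKBIZ, a nuclear IkB protein strongly tied to interleukin-1 signalling, at a difference of 0.31 (adjusted p = 0.323 from limma), and the prostaglandin synthase PTGES at 0.26, with overlap. Further genes were lower without overlap and by a larger amount than NFKBIZ was higher. They were CCL20 (-0.54), SOD2 (-0.41), SAA2 (-0.40), NFKBIA (-0.33), TNFAIP2 (-0.33) and TNFAIP3 (-0.32), with adjusted p from 0.19 to 0.53 from limma. The nearest arrays of CCL20 and TNFAIP3 were only 0.08 and 0.03 apart, while their NS duplicates were 0.46 and 0.55 apart. Among these genes only SAA2 and TNFAIP2 had a gap, of 0.28 and 0.25, larger than both distances between duplicates. CASP1, CXCL8, NFKBIZ, PTGES and the genes from CCL20 to TNFAIP3 were picked for mention after their values had been seen.

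**Figure D4:**
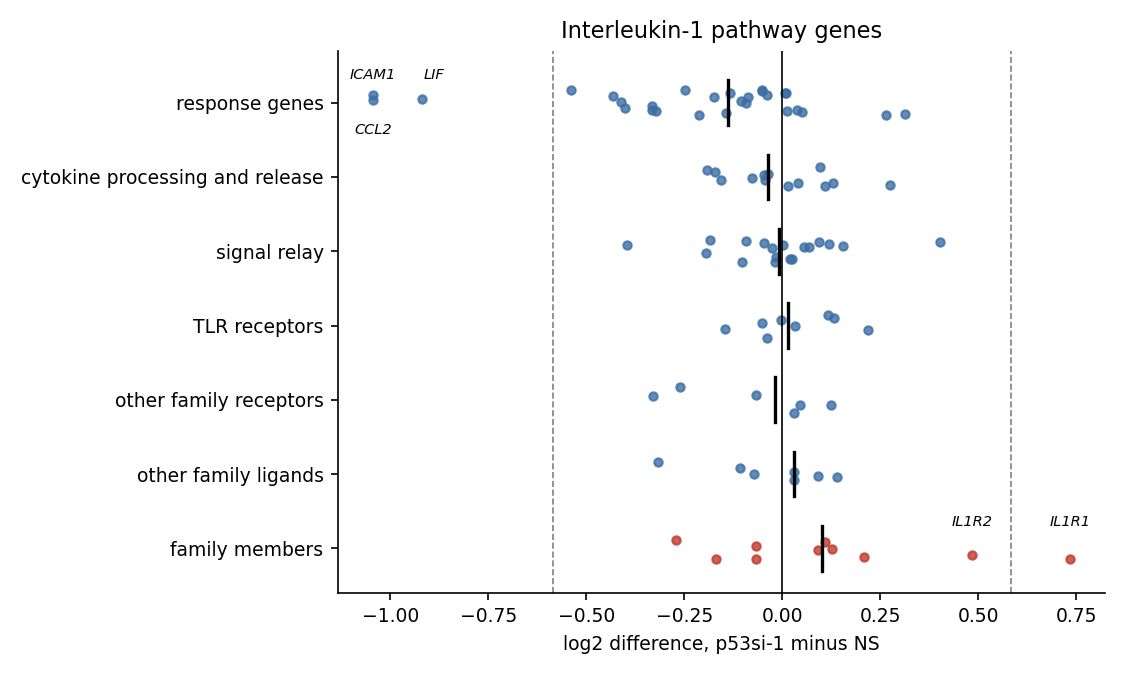
Log2 difference (p53si-1 minus NS) of the 10 family members and of the 80 measured genes in 6 pathway lists. Points are genes, black bars are medians and dashed lines mark 1.5-fold. IL1R1 lies beyond the upper line, while ICAM1, CCL2 and LIF lie beyond the lower one, and the median of the response genes is -0.14.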

How the data were processed

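RNA of 2 NS and 2 p53si-1 cultures was hybridised to 4 Affymetrix arrays. According to the submitters' processing notes, the authors used GCOS and Expression Console with RMA. The values they deposited, 1 for each transcript cluster, were taken as log2 signals from their range and nearly equal quartiles. The RMA settings are not given in the sources consulted. RMA equalizes the arrays and understates changes of dim probes, and background correction cannot be varied on these values.

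Of 33297 clusters, 19460 name 1 symbol, 1754 several and 12083 are unnamed here. Entrez numbers checked against RefSeq (GRCh38.p14) changed 0 symbols. For each of 18417 genes the cluster with the highest mean was kept. The test was limma's moderated test (lmFit, then eBayes; limma 3.58.1, R 4.3.3), with 2 residual degrees of freedom, 4.2 from the prior, and p-values adjusted over all genes by Benjamini-Hochberg, a step tested on simulated data.

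Samples were grouped by their titles. A legend of the study says that both experiments were independent, which may mean that each held an NS and a p53si-1 arm. No source says what arrays of the same replicate number share. The number was therefore not a block in the main fit and was one in an alternative. The members and all gene lists (other ligands, other receptors, Toll-like receptors, relay, processing, response, and leukocyte, fibroblast and endothelial, and epithelial markers) were chosen with earlier results of these data known. Named were the members, list genes over 1.5-fold or at an adjusted p under 0.05, otherwise the 3 largest differences per pathway list, the family genes of the 2 chromosome 2 clusters, the 5 genes nearest to IL1R1, and the brightest gene of each marker list. PTPRC, EPCAM, EGFR, ESR1 and PGR were added to check the labelled line. KRT5, FCGR3A, MAP4K4, the other flanking genes and further response genes were added after their values were seen. TLR5, TLR10, IRAK4, TAB1, NLRP1, BIRC3, CSF2, KRT6A, KRT6B and KRT17 are not analysed here. Of the 14 epithelial and line markers measured, 0 were called and the median difference was -0.02. Over all genes 0.109% were called, so a count of 0 in so short a list shows little. Alternatives changed the cluster rule, the normalization, the filter on dim genes, the prior variance, the block, the fold criterion and the arrays used.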

Additional observations from a re-analysis of the deposited data

How the results depend on the processing

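The difference of IL1R1 ran from 0.60 (without NS replicate 2) to 0.87 (without NS replicate 1) under the 8 other settings, and that of IL1R2 from 0.34 to 0.63. Where groups do not overlap, leaving out 1 array cannot change the sign. With 1 cluster per member the cluster rule changes nothing. The kept sign of IL1R1 and IL1R2 therefore adds no support. The same holds for IL1RAP, IL1A, IL18 and MYD88, whose groups did not overlap, for MYD88 by only 0.001. Of the members with overlap, IL33 kept its sign, whereas IL1B, IL1RN and IL1RL1 changed sign without 1 array (lowest -0.033, -0.021 and highest 0.079). IL1A was at -0.10 without NS replicate 1 or p53si-1 replicate 2, MYD88 ran from -0.026 to -0.111 (without NS replicates 1 and 2) and IL33 from 0.008 to 0.212 (without p53si-1 replicates 2 and 1). Members over 1.5-fold numbered 1 to 2 without 1 array (IL1R2 joined without NS replicate 1), 2 at a criterion of 1.3-fold and 0 at 2-fold. Other pathway genes over 1.5-fold numbered 2 to 6 without 1 array, most without NS replicate 1, and 9 at 1.3-fold. Of these genes, 1, ICAM1, was called after median centring, without dim genes and with a prior variance that follows the signal. Without 1 array IL36A ran from -0.042 (without p53si-1 replicate 1) to 0.325 and TLR6 from -0.009 (without NS replicate 2) to 0.273.

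Over all genes 20 were called, against 12 with the replicate number as a block (9 of them shared), 62 after median centring, 100 without dim genes and 149 with the signal-dependent prior. Without 1 array 0 or 1 were called, in fits where the lone array of a group is assumed to vary like the other group. Same-numbered arrays deviated together (correlation 0.242), but 2 pairs that share only a number do not establish pairing. Among the members, IL1R1, IL1R2, IL1RAP, IL1RL1, IL1A, IL1RN and MYD88 were higher in replicate 1 than in replicate 2 of both groups. IL1B was lower in replicate 1 of both groups, and IL18 and IL33 were mixed. Genes over 1.5-fold numbered 170, 199 to 295 without 1 array (most without p53si-1 replicate 1), 738 at 1.3-fold and 22 at 2-fold. The cause of these changes was not tested beyond the settings' own construction. With no detection call, signal over background is unknown for IL1A, IL1B, IL1RL1 and IL33, the members under the lower quartile.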
